A study of Mus musculus with 9 samples.

Results

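Genes of the bone morphogenetic protein (BMP) and transforming growth factor beta (TGF-beta) pathways were followed in newborn mouse cortex carrying 2 different activations of Sonic hedgehog signalling. The rule that found them matches gene symbols, and they comprise BMP, GDF, inhibin and TGF-beta ligands, their receptors, SMAD proteins, secreted antagonists such as noggin, chordin and follistatin, and Id and Msx target genes. The rule found 66 genes among the 23852 genes present in either of the 2 deposited tables. All 66 were in the table of SmoM2 and 65 in the table of ShhN IUE, where Gdf3 was absent.

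RNA was sequenced in bulk from dissected cortex of mice at postnatal day 0, on a background mixed from C57BL/6J, 129S6 and CD1. The 3 groups of 3 libraries each were labelled wild-type littermates, ShhN IUE and hGFAP-Cre, SmoM2f/+ (called SmoM2 below). ShhN IUE stands for in utero electroporation of ShhN, the secreted amino-terminal signalling fragment of Sonic hedgehog, which reaches only part of the cortex and leaves unelectroporated cells in the sample. SmoM2 is a constitutively active form of Smoothened, carried here as a conditional allele and recombined by Cre from the human GFAP promoter, which is active in radial glia, so their progeny carry it too. The wild-type libraries are not labelled as electroporated, so the procedure and the ligand cannot be told apart in the ShhN IUE comparison. Libraries are numbered within their group, as E1 to E3 for ShhN IUE, M1 to M3 for SmoM2 and W1 to W3 for wild type. The labels do not say whether the libraries of a group came from separate animals, so p-values measure only the spread between these samples. The same 3 wild-type libraries stand in both tables, each group was tested against the wild type of its own table, and the comparisons with wild type are therefore not independent of each other.

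BMP and TGF-beta ligands are secreted dimers that bring together type II and type I serine/threonine kinase receptors. The type I receptor phosphorylates receptor SMADs, SMAD1, SMAD5 and SMAD9 for BMPs and SMAD2 and SMAD3 for TGF-betas and activins, which enter the nucleus with SMAD4. Noggin, chordin and follistatin bind ligands outside the cell, SMAD6 and SMAD7 inhibit the receptors' signal inside it, and Id genes are direct targets of BMP signalling. In the developing forebrain, BMPs from the dorsal midline and the meninges pattern the cortex and later favour astrocyte formation, while Sonic hedgehog acts from the ventral side.

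Total counts lay between 15376071 and 19604672 in ShhN IUE libraries, between 23625702 and 26923127 in SmoM2 libraries and between 18610507 and 21694348 in wild-type libraries. Levels below are CPM, counts scaled to the size of the library after TMM normalisation, and a gene is said to have risen or fallen when the Benjamini-Hochberg adjusted p of edgeR's quasi-likelihood test, over all genes tested, was under 0.05. Shh itself had 2.59, 3.09 and 28.5 CPM in ShhN IUE libraries 1 to 3 against 1.70 to 2.82 CPM in wild type, so library 3 stood apart from the other two, library 1 lay within the wild-type range and Shh did not pass the test (adjusted p 0.0693). The hedgehog targets Ptch1 (133, 115 and 301 CPM against 29.7 to 49.99 CPM) and Gli1 (26.03, 27.7 and 68.9 CPM against 5.65 to 9.13 CPM) were above wild type in every ShhN IUE library and rose (adjusted p 0.00455 and 0.00369). Smo was at 71.7 to 84.1 CPM in SmoM2 against 19.1 to 26.1 CPM in wild type. It also rose in ShhN IUE, to 35.4 to 49.3 CPM against 19.6 to 26.4 CPM (adjusted p 0.00558). In SmoM2, Ptch1 (271 to 299.7 CPM against 30.0 to 50.9 CPM) and Gli1 (42.7 to 49.96 CPM against 5.63 to 9.14 CPM) rose (adjusted p 0.000136 and 0.000159). Shh fell there, to 0.183 to 0.636 CPM against 1.70 to 2.82 CPM (adjusted p 0.00697). The labelled tissue was cortex, and the 10 markers of cortical projection neurons summed to at least 2526 CPM in every library. Of these 10, 2 fell in ShhN IUE and 3 in SmoM2, and 0 rose. All 12 cell cycle markers rose and 11 of 12 striatal neuron markers fell in both groups, and 6 of 12 radial glia markers rose in ShhN IUE and 5 of 12 in SmoM2. In ShhN IUE 3 of 10 mural cell, 3 of 12 microglia and 3 of 10 astrocyte markers also rose, and 1 astrocyte marker fell. In SmoM2 0 of 10 mural cell, 2 of 12 microglia and 3 of 10 astrocyte markers rose. The summed level of the astrocyte markers was 1166 to 1212 CPM in SmoM2 against 686.8 to 990.8 CPM in wild type. The 5 cortical hem markers tested summed to 105.6 to 127 CPM in SmoM2 against 87.53 to 99.97 CPM in wild type. In ShhN IUE they summed to 63.9 to 95.36 CPM against 88 to 100.6 CPM, and none rose or fell in either group. Choroid plexus markers summed to 15.03 to 16.4 CPM in SmoM2 against 22.31 to 38.24 CPM, with 1 of 5 risen and 1 fallen. Those in ShhN IUE summed to 9.792 to 22.54 CPM against 22.46 to 38.34 CPM, with 1 of 4 fallen. The part of these cell types in the results below was not tested. Of all tested genes, 16.1% rose and 17.2% fell in ShhN IUE, and 9.59% and 9.29% in SmoM2.

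In ShhN IUE cortex, 8 of 55 tested pathway genes rose and 10 fell (32.7% called), beside 16.1% and 17.2% of all 16180 tested genes (33.3% called). In SmoM2 cortex, 3 of 56 rose and 8 fell (19.6%), beside 9.59% and 9.29% of 16485 genes (18.9%). The share called was near that of all genes in both groups. Counts by role below cover few genes each and stand beside these same shares of all genes. The libraries of the 2 groups did not overlap for 27 genes in ShhN IUE (49.1%), beside 49.4% of all genes, and for 18 in SmoM2 (32.1%), beside 40.1%. The median log2 fold change over the pathway was -0.28 in ShhN IUE, where it was -0.00384 over all genes, and -0.03 in SmoM2, beside -0.00719. Of the 18 calls in ShhN IUE, 7 held when each of the 6 libraries in turn was left out, and of the 11 in SmoM2, 3 did. How many of all called genes held in this way was not computed. The other genes were too low to test: Bmp10, Bmp8a, Gdf2, Gdf6, Gdf7, Gdf15, Inhbc, Inhbe and Msx2 in both tables, with at most 13 counts in any library, Gdf3 with 2 counts in all, and Bmp15 in the ShhN IUE table with 0 to 18 counts.

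**Figure D1:**
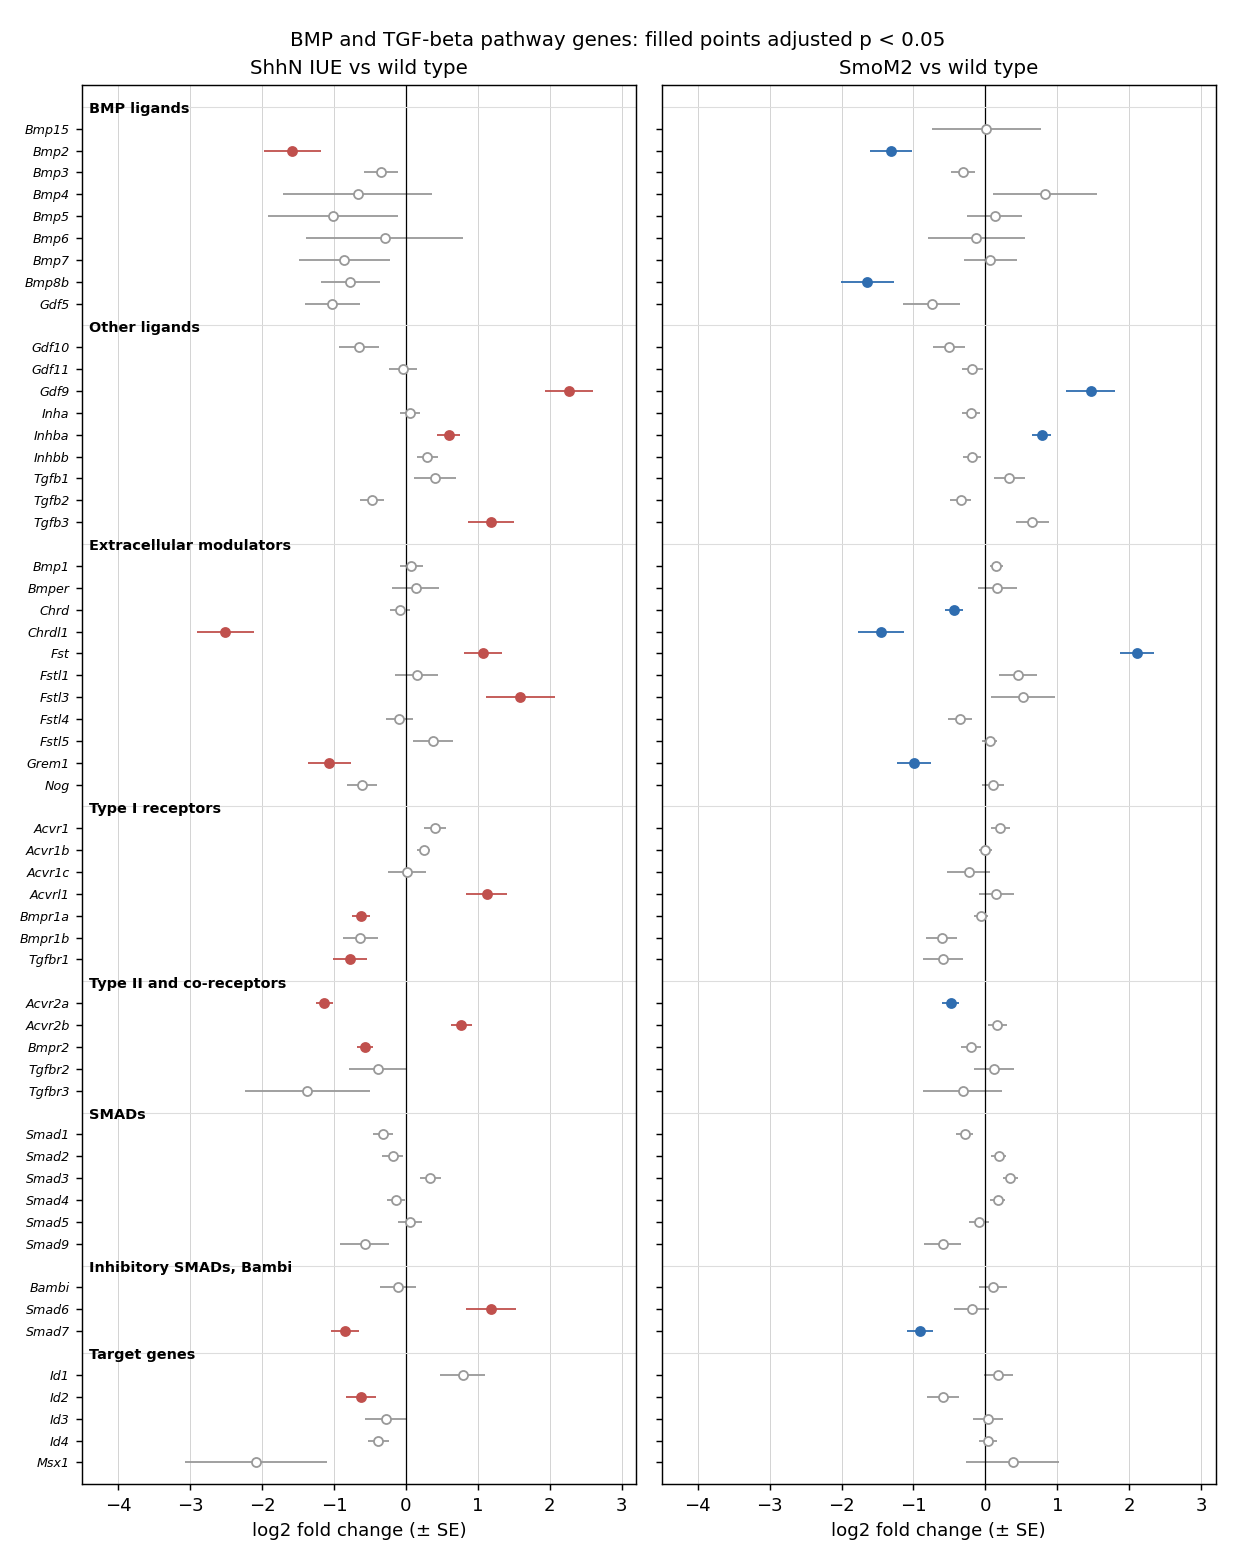
Log2 fold change against wild type (x axis, points with SE bars) of the tested BMP and TGF-beta pathway genes reported here, in ShhN IUE (left) and SmoM2 (right), ordered by role; filled points passed adjusted p 0.05. Follistatin (Fst), Inhba and Gdf9 lie to the right and Bmp2, Chrdl1, Grem1, Acvr2a and Smad7 to the left in both panels.

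Among the BMP ligands, Bmp2 was the 1 of 8 tested that fell in ShhN IUE, and Bmp2 and Bmp8b were the 2 of 9 that fell in SmoM2. None rose in either group. Bmp2, a BMP that signals through SMAD1 and SMAD5, is encoded at chr2:133552159-133562885. Its levels were 0.966, 1.36 and 2.50 CPM in ShhN IUE libraries 1 to 3, and 3.73, 6.32 and 4.28 CPM in the wild-type libraries. All ShhN IUE values lay below all wild-type values, and the log2 fold change was -1.58 (SE 0.40, adjusted p 0.0185). In SmoM2, Bmp2 had 2.46, 1.86 and 1.46 CPM against 3.72, 6.32 and 4.27 CPM in the wild type of that table. Here too the groups did not overlap, with a log2 fold change of -1.31 (SE 0.29, adjusted p 0.018). Bmp8b, a low ligand best known from germ cells, had 0.330, 0.339 and 0.192 CPM in SmoM2 and 1.08, 0.910 and 0.711 CPM in wild type, with a log2 fold change of -1.64 (SE 0.36, adjusted p 0.0176). The Bmp2 call was lost in ShhN IUE without E1, E2 or W2 (log2 fold change -1.30 to -1.47, adjusted p 0.0568 to 0.0626), and in SmoM2 without M2 or M3 (-1.27 and -1.13, adjusted p 0.0688 and 0.0827). The Bmp8b call was lost without M1, M2 or M3 (-1.41 to -1.75, adjusted p 0.0541 to 0.0896) and with DESeq2 (adjusted p 0.054).

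Bmp4 and Bmp7, the ligands best known from the dorsal midline and the meninges, did not pass the test in either group. Bmp4 had 1.17, 0.297 and 4.20 CPM in ShhN IUE, 7.05, 4.24 and 4.56 CPM in SmoM2, and 0.207, 5.50 and 3.19 CPM in wild type. Bmp7 had 4.68, 4.81 and 20.9 CPM in ShhN IUE, 22.4, 15.2 and 19.4 CPM in SmoM2, and 8.51, 28.9 and 17.1 CPM in wild type. ShhN IUE library 3 was several times above the other ShhN IUE libraries for both genes, and wild-type library 1 was the lowest of its group. The log2 fold changes of Bmp4 were -0.67 (SE 1.04, adjusted p 0.648) in ShhN IUE and 0.83 (SE 0.72, adjusted p 0.465) in SmoM2. Leaving out 1 library moved the first between -1.98 (without E3) and 0.15 (without W2) and the second between 0.28 (without W1) and 1.65 (without W2), with a change of sign in ShhN IUE. Those of Bmp7 were -0.85 (SE 0.64, adjusted p 0.332) and 0.07 (SE 0.37, adjusted p 0.917). Bmp7 in ShhN IUE ranged from -1.93 (without E3, where it passed at adjusted p 0.0236) to -0.35 (without W2), and in SmoM2 from -0.27 (without W1) to 0.57 (without W2). Bmp3, Bmp5, Bmp6 and Gdf5 did not pass in either group, with log2 fold changes between -1.02 and 0.13, though Bmp5 fell in ShhN IUE without E3. Bmp15, known from oocytes, had 14, 11 and 11 counts in SmoM2, 1, 0 and 1 counts in ShhN IUE, and 0, 18 and 10 counts in wild type, and did not pass in SmoM2.

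The other ligands held 3 genes that rose in ShhN IUE, Gdf9, Inhba and Tgfb3, and 2 that rose in SmoM2, Inhba and Gdf9, of 9 tested in each, and none fell. Inhba encodes the beta A subunit that forms activin A (chr13:16011851-16027211). It was at 43.2, 40.1 and 32.3 CPM in ShhN IUE and at 22.5, 23.9 and 30.2 CPM in wild type. The lowest ShhN IUE library thus lay just above the highest wild-type library, and the log2 fold change was 0.60 (SE 0.16, adjusted p 0.0235). In SmoM2, Inhba was at 37.1, 44.0 and 43.4 CPM against 21.2, 22.8 and 28.2 CPM. Every SmoM2 library was above every wild-type library by at least 8 CPM, with a log2 fold change of 0.79 (SE 0.13, adjusted p 0.00593). That call held without each library, whereas the call in ShhN IUE was lost without E1, E2, W1 or W2 (log2 fold change 0.51 to 0.58, adjusted p 0.0603 to 0.0954).

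Gdf9, a ligand known from oocytes and low in this tissue (chr11:53431023-53437904), had 3.41, 4.33 and 3.32 CPM in ShhN IUE and 0.519, 0.727 and 1.04 CPM in wild type. The groups were far apart, with a log2 fold change of 2.27 (SE 0.34, adjusted p 0.00249), the largest rise of the pathway in that comparison. SmoM2 libraries had 2.50, 1.44 and 2.49 CPM of Gdf9 against 0.568, 0.728 and 1.04 CPM, again without overlap (log2 fold change 1.46, SE 0.34, adjusted p 0.0216). The SmoM2 call was lost without M1, M3, W1 or W2 (1.29 to 1.42, adjusted p 0.0511 to 0.0896). Tgfb3, one of the TGF-beta isoforms, rose from 7.57 ± 2.30 CPM (SD, n = 3) to 17.3 ± 6.96 CPM in ShhN IUE, with a log2 fold change of 1.19 (SE 0.32, adjusted p 0.0244). Its ShhN IUE library 3 was highest at 25.3 CPM, and the call was lost without that library (0.82, adjusted p 0.0565) or without W1 or W3 (1.02 and 1.12, adjusted p 0.0735 and 0.0794). In SmoM2, Tgfb3 had a log2 fold change of 0.65 (SE 0.23, adjusted p 0.0823), and it passed there without W2 and with DESeq2.

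Tgfb2 and Gdf11 did not pass in either group. Tgfb2, a TGF-beta isoform of the developing brain, had log2 fold changes of -0.47 (SE 0.16, adjusted p 0.0594) in ShhN IUE and -0.34 (SE 0.15, adjusted p 0.15) in SmoM2. Without wild-type library 3 it passed in ShhN IUE (-0.60, adjusted p 0.0307), as it did with DESeq2 (adjusted p 0.0416). Its wild-type counts differed between the tables, 1442 in one and 1301 in the other. Gdf11, a relative of myostatin that acts on neuron number, had -0.03 (SE 0.19, adjusted p 0.908) and -0.18 (SE 0.15, adjusted p 0.441). Of the rest, Gdf10, Inha, Inhbb and Tgfb1 lay between -0.65 and 0.41 without passing. Gdf10 fell in ShhN IUE without E3 and in SmoM2 without W3.

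Secreted modulators of the ligands held the largest called change of each comparison with wild type, Chrdl1 in ShhN IUE and Fst in SmoM2. In ShhN IUE 2 of 12 rose (Fst and Fstl3) and 3 fell, Chrdl1 and Grem1 among them, and in SmoM2 1 rose (Fst) and 4 fell, among them Chrdl1, Grem1 and Chrd. Follistatin, encoded by Fst at chr13:114452262-114458730, binds and neutralises activins. Its level was 57.7, 58.9 and 47.1 CPM in SmoM2 and 17.97, 10.3 and 9.63 CPM in wild type. Each SmoM2 library held more than the highest wild-type library, and the 4.32-fold rise (log2 fold change 2.11, SE 0.23, adjusted p 0.00104) had the smallest p of the pathway in SmoM2. ShhN IUE libraries had 26.8, 22.4 and 32.2 CPM against 18.4, 10.5 and 9.72 CPM. These did not overlap either, with a 2.11-fold rise (log2 fold change 1.07, SE 0.26, adjusted p 0.0165) that was lost without W2 or W3 (0.95 and 0.91, adjusted p 0.0547 and 0.0545). Fst and Inhba, an inhibitor and a subunit of its ligand, thus rose together in both groups.

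Chordin-like 1 (Chrdl1, chrX:143285674-143394262), a secreted BMP antagonist, fell in both groups. ShhN IUE libraries had 0.559, 1.66 and 0.939 CPM, and wild-type libraries 6.95, 6.13 and 4.89 CPM. The highest ShhN IUE value was well under the lowest wild-type value, and the log2 fold change of -2.51 (SE 0.40, adjusted p 0.00318) was the largest fall of the pathway in that comparison. In SmoM2, Chrdl1 had 1.25, 2.63 and 2.80 CPM against 7.07, 6.23 and 4.92 CPM. Those groups also stayed apart, with a log2 fold change of -1.45 (SE 0.32, adjusted p 0.0165), and both calls held without each library.

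Gremlin 1 (Grem1), an antagonist of BMP2, BMP4 and BMP7, fell in both groups. It had 1.73, 2.61 and 2.69 CPM in ShhN IUE, 2.53, 2.37 and 2.45 CPM in SmoM2, and 5.65, 5.45 and 3.57 CPM in wild type. All 6 treated libraries were thus below the 3 wild-type libraries. Its log2 fold change was -1.06 (SE 0.30, adjusted p 0.027) in ShhN IUE and -0.99 (SE 0.23, adjusted p 0.0219) in SmoM2. Both calls were sensitive to single libraries. Grem1 lost its call in ShhN IUE without E1, E2, W1 or W2 (-0.88 to -1.14, adjusted p 0.051 to 0.098). In SmoM2 it lost it without M1, M2, M3 or W2 (-0.91 to -1.01, adjusted p 0.0508 to 0.0896).

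Fstl3, which like follistatin binds activins, rose in ShhN IUE from 0.933 ± 0.640 to 2.86 ± 0.615 CPM (SD, n = 3; log2 fold change 1.59, SE 0.48, adjusted p 0.0361). The call was lost without E1, E2, E3, W1 or W3 (1.23 to 1.70, adjusted p 0.0589 to 0.101), and 47.3% of its exonic bases overlap Prss57 on the opposite strand, whose reads cannot be told apart from its own where strand was not used. Chordin itself, Chrd, fell in SmoM2 from 30.6 ± 2.97 to 22.6 ± 2.53 CPM (log2 fold change -0.44, SE 0.13, adjusted p 0.0433). That call was lost without M1, M2, M3, W1 or W3 (-0.34 to -0.48, adjusted p 0.0729 to 0.139) and without the filter on low counts (adjusted p 0.0696). In ShhN IUE, Chrd had a log2 fold change of -0.08 (SE 0.14, adjusted p 0.689). Noggin (Nog), which blocks BMP binding to receptors, had 4.37, 5.22 and 6.07 CPM in ShhN IUE and 8.09, 7.63 and 8.18 CPM in wild type. The groups did not overlap, but the log2 fold change of -0.61 (SE 0.20) had an adjusted p of 0.0504, and it passed without E3 (-0.72, adjusted p 0.0485) and with RLE scaling or DESeq2 (0.0491 and 0.0399). In SmoM2, Nog was at 8.53 ± 0.712 CPM against 7.95 ± 0.270 CPM (log2 fold change 0.10, SE 0.15, adjusted p 0.679). Bmp1, a protease that cleaves chordin, and Bmper, Fstl1, Fstl4 and Fstl5 did not pass in either group. Fstl5 rose in ShhN IUE without W1, and Fstl1 rose in SmoM2 without W2.

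**Figure D2:**
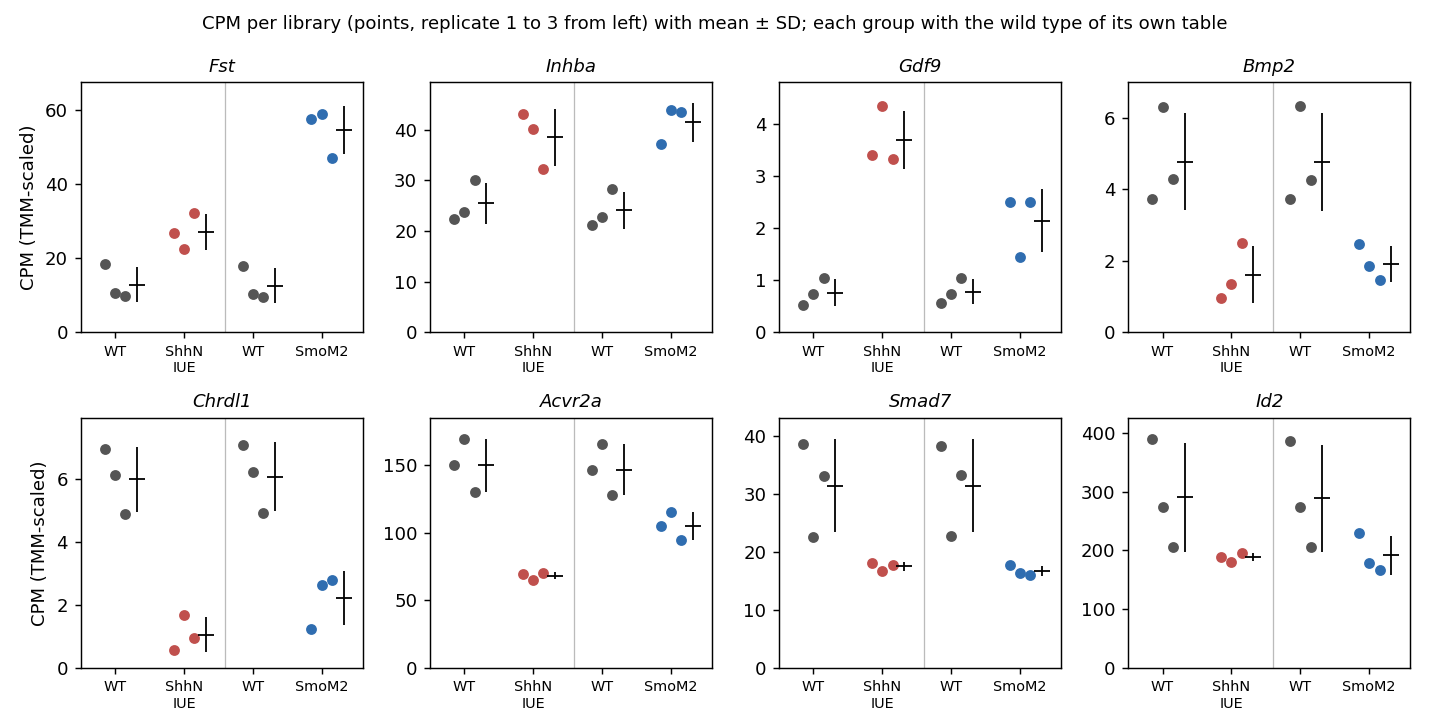
CPM (y axis, from 0) of 8 pathway genes in every library, with ShhN IUE and SmoM2 each beside the wild type of its own table; points are single libraries and bars the mean ± SD of 3. Fst, Inhba and Gdf9 are higher and Bmp2, Chrdl1, Acvr2a and Smad7 lower than wild type without overlap in both groups, and Id2 overlaps wild type in SmoM2.

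Among 7 type I receptors, 1 rose (Acvrl1) and 2 fell (Bmpr1a and Tgfbr1) in ShhN IUE. Among 5 type II receptors and co-receptors, 1 rose (Acvr2b) and 2 fell (Acvr2a and Bmpr2) there. Of all tested genes, 16.1% rose and 17.2% fell in ShhN IUE. In SmoM2 the single receptor that passed was Acvr2a, which fell. Acvr2a, a type II receptor for activins and several BMPs (chr2:48814109-48903269), had the smallest p of the pathway in ShhN IUE. Its level was 69.3, 65.1 and 69.8 CPM in ShhN IUE and 149.7, 169 and 129.9 CPM in wild type. The ShhN IUE libraries were close to one another and far below wild type, at 0.455 of its level (log2 fold change -1.14, SE 0.12, adjusted p 0.000866). SmoM2 libraries were at 105, 115 and 94.6 CPM against 146, 166 and 128 CPM in their wild type. They did not overlap with it, and the log2 fold change was -0.48 (SE 0.12, adjusted p 0.0262), a call lost without M1, M3 or W2 (-0.39 to -0.47, adjusted p 0.0619 to 0.12).

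Acvr2b, the paralogous activin receptor (chr9:119402444-119433501), went the other way in ShhN IUE. It had 24.5, 21.7 and 21.04 CPM there and 14.5, 12.2 and 12.7 CPM in wild type. The groups were separate, with a log2 fold change of 0.77 (SE 0.14, adjusted p 0.00568). In SmoM2 the log2 fold change of Acvr2b was 0.17 (SE 0.14, adjusted p 0.425). Acvr2a remained the higher of the pair in wild type by the authors' FPKM, which is scaled by gene length, at 23.1 ± 3.52 against 5.87 ± 0.399 (SD, n = 3).

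The BMP receptors Bmpr2 (type II, chr1:59763400-59879014) and Bmpr1a (type I, chr14:34410734-34503341) fell in ShhN IUE. Bmpr2 had 196, 174 and 189 CPM in ShhN IUE and 237, 296 and 295 CPM in wild type. Bmpr1a had 50.1, 50.1 and 61.1 CPM in ShhN IUE and 77.0, 81.8 and 89.8 CPM in wild type. Neither gene overlapped between the groups, and the log2 fold changes were -0.57 (SE 0.11, adjusted p 0.0076) and -0.62 (SE 0.12, adjusted p 0.00779). In SmoM2 they were -0.20 (SE 0.13, adjusted p 0.327) for Bmpr2 and -0.06 (SE 0.10, adjusted p 0.721) for Bmpr1a. The ShhN IUE calls of Acvr2a, Acvr2b, Bmpr2 and Bmpr1a each held without any one library. In bulk tissue, fewer cells that carry a transcript and less of it per cell cannot be told apart.

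Tgfbr1, the TGF-beta type I receptor, fell in ShhN IUE from 283 ± 43.1 to 166 ± 56.7 CPM (SD, n = 3; log2 fold change -0.77, SE 0.24, adjusted p 0.0375). The call was lost without E2, E3, W1 or W3 (-0.54 to -0.74, adjusted p 0.058 to 0.117). Its summed wild-type counts were 16658 in one table and 10825 in the other, and the source of the difference was not tested. Acvrl1 (ALK1), a type I receptor of endothelial cells, rose from 3.89 ± 0.928 to 8.50 ± 2.37 CPM in ShhN IUE (log2 fold change 1.12, SE 0.28, adjusted p 0.0177), and was lost without W1 or W3 (1.05 and 1.01, adjusted p 0.0518 and 0.0591). In the same libraries 2 of 12 endothelial markers rose and 0 fell, beside 16.1% and 17.2% of all genes. Their summed level was 254.7 to 437.5 CPM in ShhN IUE and 210.8 to 328.6 CPM in wild type, so the groups overlapped. None of the 12 rose or fell in SmoM2, where Acvrl1 had a log2 fold change of 0.15 (SE 0.25, adjusted p 0.71). The part of endothelial cells in the Acvrl1 result was not tested. Bmpr1b, the other BMP type I receptor, had log2 fold changes of -0.63 (SE 0.24, adjusted p 0.0804) in ShhN IUE and -0.61 (SE 0.22, adjusted p 0.0846) in SmoM2, and it passed with DESeq2 in each (0.0459 and 0.0457). Its summed wild-type counts also differed, with 1026 in the ShhN IUE table and 646 in the SmoM2 table, and the source of this was not tested. Acvr1, Acvr1b, Acvr1c, Tgfbr2 and the co-receptor Tgfbr3 did not pass in either group. In ShhN IUE, Acvr1 rose without E2, without W1 and with DESeq2. Acvr1b rose there with upper quartile scaling, and Tgfbr3 fell without E3.

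None of the 6 receptor and common SMADs rose or fell in either group with the main edgeR settings. Smad1, a BMP receptor SMAD, had log2 fold changes of -0.32 (SE 0.13, adjusted p 0.1) in ShhN IUE and -0.29 (SE 0.11, adjusted p 0.114) in SmoM2. Smad5, its partner in BMP signalling, had 0.05 (SE 0.17, adjusted p 0.832) and -0.09 (SE 0.14, adjusted p 0.686). For the shared Smad4 the values were -0.14 (SE 0.13, adjusted p 0.439) and 0.17 (SE 0.11, adjusted p 0.297). Smad3, a TGF-beta and activin SMAD, came closest to the threshold, at 0.35 (SE 0.11, adjusted p 0.0573) in SmoM2. It passed there with DESeq2, with upper quartile scaling, without the filter on low counts and without W1. Wild-type counts of Smad2, Smad4 and Smad5 differed between the tables.

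The inhibitory SMADs moved in opposite directions in ShhN IUE. Smad7, an inhibitor of both TGF-beta and BMP receptors, had 18.1, 16.6 and 17.8 CPM in ShhN IUE and 17.8, 16.4 and 16.03 CPM in SmoM2. Wild-type libraries had 38.5, 22.6 and 33.1 CPM in the ShhN IUE table and 38.3, 22.7 and 33.3 CPM in the SmoM2 table. The 6 treated libraries were close together and all below the lowest wild-type library, and the log2 fold changes were -0.84 (SE 0.19, adjusted p 0.0134) and -0.91 (SE 0.19, adjusted p 0.0125). In SmoM2 the adjusted p reached 0.05 without M2 and 0.058 without M3 (-0.88 and -0.87). Smad6, an inhibitor chiefly of BMP receptors and abundant in endothelium, had 5.03, 3.26 and 7.64 CPM in ShhN IUE and 2.39, 2.77 and 1.81 CPM in wild type. Its lowest ShhN IUE library lay just above the highest wild-type library, and the log2 fold change was 1.19 (SE 0.35, adjusted p 0.0337). The call was lost without E1, E3, W1, W2 or W3 (0.84 to 1.33, adjusted p 0.0569 to 0.104). In SmoM2, Smad6 had a log2 fold change of -0.19 (SE 0.24, adjusted p 0.63). Bambi, a pseudoreceptor that dampens BMP and TGF-beta signals, had -0.11 (SE 0.25, adjusted p 0.764) and 0.10 (SE 0.19, adjusted p 0.753).

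Of the target genes, Id2 fell in ShhN IUE and no other passed in either group, of 5 tested. The Id proteins bind basic helix-loop-helix factors and hold back differentiation. Id2 had 189, 181 and 196 CPM in ShhN IUE, 229, 179 and 166 CPM in SmoM2, and 390.1, 274 and 206 CPM in the wild type of the ShhN IUE table. W1 was far above W3, and W3 was just above the ShhN IUE libraries. The log2 fold change was -0.62 (SE 0.20, adjusted p 0.0474) in ShhN IUE and -0.59 (SE 0.22, adjusted p 0.0953) in SmoM2. In ShhN IUE the call was lost without E1, E2, E3 or W2 (-0.58 to -0.66, adjusted p 0.0801 to 0.116), without W1 (-0.35, adjusted p 0.1) and with upper quartile scaling (adjusted p 0.0617). In SmoM2 it passed without W3 (-0.77, adjusted p 0.0356) and with DESeq2 (adjusted p 0.0237).

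Id1 had 18.4, 14.5 and 33.0 CPM in ShhN IUE, 16.8, 13.9 and 12.3 CPM in SmoM2, and 12.3, 15.7 and 9.998 CPM in wild type. ShhN IUE library 3 was the highest, and the groups overlapped. Its log2 fold changes were 0.79 (SE 0.31, adjusted p 0.0835) and 0.18 (SE 0.20, adjusted p 0.571), and without E2 the first passed (1.02, adjusted p 0.0391), as it did with DESeq2 (adjusted p 0.0318). Id3 had 12.3, 13.1 and 22.9 CPM in ShhN IUE, 22.2, 17.2 and 16.9 CPM in SmoM2, and 17.5, 25.4 and 15.6 CPM in wild type. These overlapped throughout, with log2 fold changes of -0.28 (SE 0.28, adjusted p 0.474) and 0.04 (SE 0.21, adjusted p 0.91). Id4 had 32.9, 36.7 and 40.9 CPM in ShhN IUE, 50.2, 46.9 and 49.7 CPM in SmoM2, and 41.0, 55.0 and 47.8 CPM in wild type. ShhN IUE lay just below wild type without overlap (log2 fold change -0.38, SE 0.14, adjusted p 0.0753), passing without W1 (-0.48, adjusted p 0.0441), and SmoM2 lay within the wild-type range (0.04, SE 0.12, adjusted p 0.858).

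Msx1, a homeobox gene induced by BMPs at the dorsal midline and in mesenchyme, had 0.254, 0.119 and 1.82 CPM in ShhN IUE, 5.43, 2.08 and 4.26 CPM in SmoM2, and 0.778, 6.27 and 2.03 CPM in wild type. The libraries of each group spread widely, and ShhN IUE overlapped wild type. The log2 fold changes of -2.09 (SE 0.99, adjusted p 0.138) and 0.38 (SE 0.64, adjusted p 0.722) did not pass. In ShhN IUE the value ranged from -3.95 (without E3, where it passed at adjusted p 0.0285) to -0.97 (without W2), and in SmoM2 from -0.07 (without W1) to 1.49 (without W2), with a change of sign.

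Promoter stretches are shown for 5 examples that hold a SMAD-binding sequence near a RefSeq start. They are Smad6 with its palindrome, the BMP receptors Bmpr1a and Bmpr2, and Id2 and Id4 as textbook BMP targets. Id4 passed in the comparison of SmoM2 with ShhN IUE but in neither comparison with wild type. Other called genes with such a sequence (Chrd, Grem1 and Tgfbr1) are named only. RefSeq promoters of GRCm38.p6, from 250 bases before to 50 bases after the start, matched 46 of the 66 genes with 54 promoters. The SMAD palindrome GTCTAGAC, which is its own reverse complement, was in 1 of the 54, that of Smad6, 4 bases before the start, and in 0.213% of all 32851 promoters of this length. The core of the SMAD1/5 element, GGCGCC, also the same on both strands, was in 12 of the 54 promoters, from 11 of the 46 genes (Acvr1b, Bmpr1a, Bmpr2, Chrd, Gdf10, Grem1, Id2, Id4, Smad5, Smad9 and Tgfbr1) and in 11.9% of all promoters. The GLI consensus GACCACCCA, searched on both strands, was in 0 of the 54 and in 0.253% of all. None of these 3 letter strings contains another, and a match is a match of letters only. The stretches below are 100 bases long, 5′ to 3′ on the gene's strand, with the motif in capitals. The motif is the palindrome for Smad6 and GGCGCC for the others. GGCGCC starts 231 (Id2), 148 (Id4), 198 (Bmpr1a) and 105 (Bmpr2) bases before the RefSeq start. By the gene spans given above, the stretches of Bmpr1a and Bmpr2 lie within the gene.
Smad6, chr9:64022045-64022144, minus strand: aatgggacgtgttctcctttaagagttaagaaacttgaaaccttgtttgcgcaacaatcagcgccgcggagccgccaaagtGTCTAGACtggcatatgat
Id2, chr12:25096243-25096342, minus strand: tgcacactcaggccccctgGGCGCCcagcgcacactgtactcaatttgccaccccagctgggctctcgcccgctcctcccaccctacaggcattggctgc
Id4, chr13:48260922-48261021, plus strand: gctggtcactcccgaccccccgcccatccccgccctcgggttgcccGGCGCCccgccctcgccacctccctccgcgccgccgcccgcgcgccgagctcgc
Bmpr1a, chr14:34502691-34502790, minus strand: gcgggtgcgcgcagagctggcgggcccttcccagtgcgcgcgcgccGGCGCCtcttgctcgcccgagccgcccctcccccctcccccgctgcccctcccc
Bmpr2, chr1:59764128-59764227, plus strand: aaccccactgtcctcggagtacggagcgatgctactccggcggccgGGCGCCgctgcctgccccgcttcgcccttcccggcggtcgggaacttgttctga

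SmoM2 and ShhN IUE were compared with each other over 12349 genes whose wild-type counts agreed between the tables, 47 of them of the pathway. Acvr1, Acvr1c, Acvrl1, Bmpr1b, Fstl5, Gdf15, Inhbe, Smad2, Smad4, Smad5, Tgfb2 and Tgfbr1 did not agree and were left out, as were the genes too low to test. CPM in this comparison are relative to those genes only, and are higher than above. In SmoM2 relative to ShhN IUE, 5 of the 47 were higher and 3 lower (17% called), beside 8.45% and 8.07% of all genes (16.5% called). The groups did not overlap for 18 of the 47 (38.3%), beside 41% of all genes. The summed level of the cortical hem markers was 160.2 to 193.2 CPM in SmoM2 and 98.37 to 144.6 CPM in ShhN IUE, and its part in these results was not tested. The higher ones were Acvr2a, Bmpr1a, Fst, Nog and Id4, and the lower ones Acvr2b, Smad6 and Inhbb.

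Receptors differed most clearly. Acvr2b was at 21.3, 20.1 and 22.2 CPM in SmoM2 and at 37.6, 33.2 and 31.9 CPM in ShhN IUE. Acvr2a was at 159.6, 175 and 143 CPM in SmoM2 and at 107, 99.7 and 106 CPM in ShhN IUE. These paralogous activin receptors thus differed in opposite directions without overlap, with log2 fold changes of -0.69 (SE 0.12, adjusted p 0.00547) and 0.61 (SE 0.11, adjusted p 0.00555). Bmpr1a was at 109, 125 and 122 CPM in SmoM2 and at 77.1, 76.8 and 92.7 CPM in ShhN IUE, with a log2 fold change of 0.53 (SE 0.11, adjusted p 0.0095). The calls of these 3 receptors held without each library. Bmpr2 had a log2 fold change of 0.35 (SE 0.13, adjusted p 0.0816).

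Fst was at 87.8, 89.3 and 71.4 CPM in SmoM2 and at 41.2, 34.4 and 48.9 CPM in ShhN IUE. Nog was at 13.6, 11.7 and 13.5 CPM in SmoM2 and at 6.73, 7.9995 and 9.21 CPM in ShhN IUE. Both antagonists were higher in every SmoM2 library, with log2 fold changes of 1.00 (SE 0.22, adjusted p 0.0132) and 0.70 (SE 0.17, adjusted p 0.0202). The Fst call was lost without M2 (0.94, adjusted p 0.0549), and that of Nog without E1, M1 or M3 (0.60 to 0.67, adjusted p 0.0678 to 0.0843). Inhbb, which encodes the beta B subunit of activin B, was at 41.9, 38.8 and 41.8 CPM in SmoM2 and at 54.7, 61.6 and 57.1 CPM in ShhN IUE. Its groups did not overlap (log2 fold change -0.50, SE 0.12, adjusted p 0.0216), and the call was lost without E1, E2, M1, M2 or M3 (-0.45 to -0.53, adjusted p 0.0562 to 0.0901).

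Smad6 was at 3.01, 2.96 and 3.31 CPM in SmoM2 and at 7.75, 4.9997 and 11.6 CPM in ShhN IUE. ShhN IUE library 3 was the highest, all ShhN IUE libraries were above all SmoM2 libraries, and the log2 fold change was -1.39 (SE 0.31, adjusted p 0.0132), lost without M1 or M2 (-1.36 and -1.35, adjusted p 0.0502 and 0.0583). Of 10 endothelial markers tested, 2 were lower in SmoM2 and 0 higher, beside 8.07% and 8.45% of all genes. Their median log2 fold change was 0.153, and they summed to 359.8 to 410.7 CPM in SmoM2 and 344.8 to 591 CPM in ShhN IUE. Their part in the Smad6 result was not tested. Id4 was at 76.4, 71.1 and 75.3 CPM in SmoM2 and at 50.7, 56.2 and 62.1 CPM in ShhN IUE. Its groups did not overlap (log2 fold change 0.40, SE 0.12, adjusted p 0.047), but the call was lost without E1, E2, M1, M2 or M3 (0.34 to 0.43, adjusted p 0.0857 to 0.156) and with upper quartile scaling (adjusted p 0.0625). The other Id genes did not pass. Id1 was at 25.6, 21.1 and 18.6 CPM in SmoM2 and 28.3, 22.3 and 50.05 CPM in ShhN IUE, Id2 at 349, 272 and 251 CPM and 291, 277 and 297 CPM, and Id3 at 33.7, 26.0 and 25.6 CPM and 18.9, 20.1 and 34.8 CPM. Each of these ranges overlapped, with adjusted p of 0.148, 0.979 and 0.602. Without E3, Bmp7 (log2 fold change 1.98, adjusted p 0.0143) and Msx1 (4.31, adjusted p 0.0185) were higher in SmoM2, and with all libraries they were not (0.91, SE 0.56, adjusted p 0.285 and 2.46, SE 0.88, adjusted p 0.0815).

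**Figure D3:**
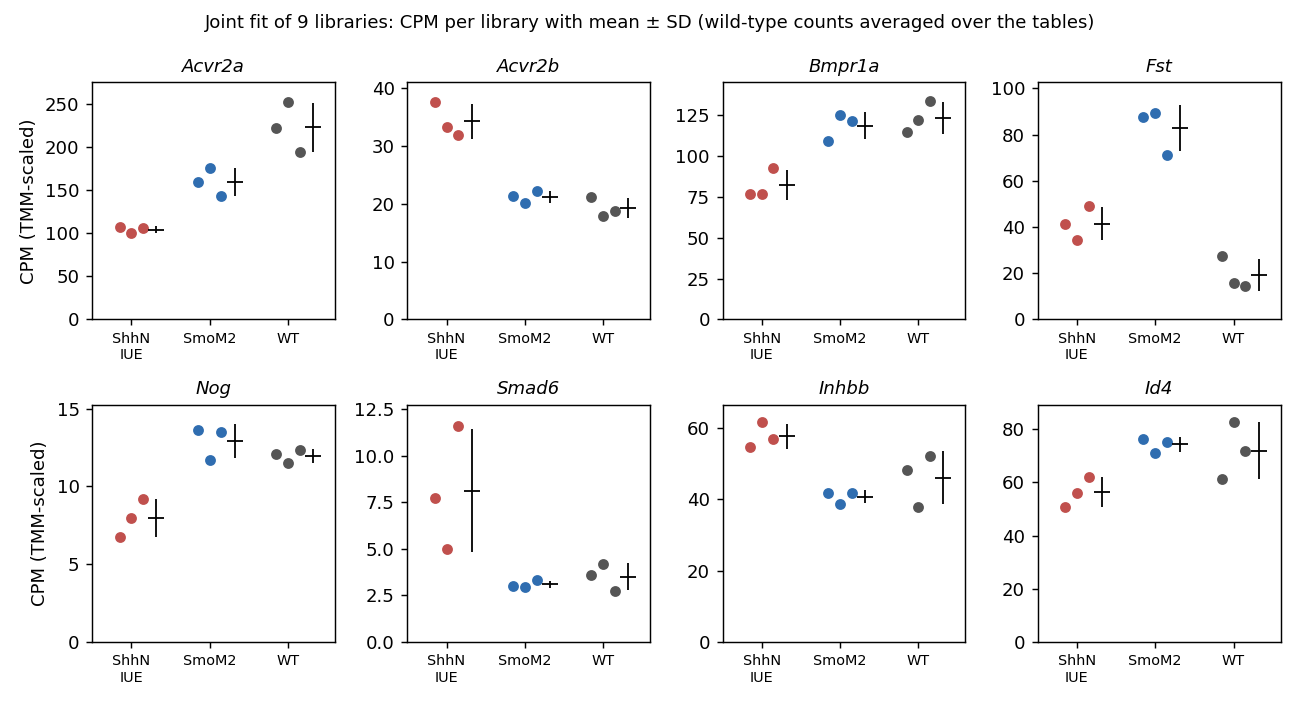
CPM (y axis, from 0) of the 8 pathway genes that differed between SmoM2 and ShhN IUE, in each of 9 libraries, with the mean ± SD of 3; CPM are relative to the genes whose wild-type counts agreed. Acvr2b and Smad6 stand above wild type in ShhN IUE, Acvr2a and Bmpr1a are lowest in ShhN IUE, and Fst is highest in SmoM2.

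Levels in the 3 wild-type libraries spread unevenly over the pathway. By FPKM in the ShhN IUE table, Id2 was the highest at 224 ± 68.1 (SD, n = 3), followed by the activin type I receptor Acvr1b at 38.7 ± 2.52, Tgfbr1 at 30.4 ± 4.05, Id4 at 28.5 ± 4.94, Inha at 26.8 ± 3.98, Acvr2a at 23.1 ± 3.52 and Bmp1 at 21.3 ± 1.26. Beyond Id2, neighbours in this order differed by less than the sum of their SDs, except Acvr1b from Tgfbr1. The BMP ligands were low: Bmp6 at 4.56 ± 4.05 and Bmp7 at 3.88 ± 2.29 led them, and Bmp2, Bmp3, Bmp4 and Bmp5 lay between 0.773 and 1.33. Bmp6 and Bmp4 had an SD close to their mean. In the SmoM2 table Tgfbr1 was at 19.95 ± 5.83, below Bmp1 at 21.3 ± 1.26, so its place in the order depends on the table.

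The wild-type libraries differed widely in some pathway genes. The highest wild-type library exceeded the lowest 26.5-fold for Bmp4, 14.2-fold for Bmp6, 8.06-fold for Msx1, 7.41-fold for Tgfbr3, 4.25-fold for Fstl3 and 3.40-fold for Bmp7, but 1.39-fold for Bmp3 and 1.69-fold for Bmp2, against a median of 1.31-fold over all 16180 genes. The summed level of 16 meningeal markers differed between the same libraries: 22.2, 652.4 and 236.1 CPM in wild-type libraries 1 to 3, 32.03, 45.04 and 899.6 CPM in ShhN IUE, and 519.6, 265.4 and 387.7 CPM in SmoM2. Wild-type library 1 and ShhN IUE libraries 1 and 2 were thus low, 1 of the markers was at 0 counts in the first and 3 in each of the others, and all markers were counted in the remaining libraries. Of the 55 pathway genes, 13 (23.6%) followed this order, with wild-type library 2 above 3 above 1 and ShhN IUE library 3 the highest of its group, beside 9% of all genes. The order was chosen after it was seen. They were Bmp2, Bmp3, Bmp4, Bmp5, Bmp6, Bmp7, Fstl1, Id4, Msx1, Tgfb1, Tgfb3, Tgfbr2 and Tgfbr3. None of the meningeal markers rose or fell in either group. ShhN IUE library 3, the highest of its group in these markers, was also the highest in Shh (28.5 CPM against 2.59 and 3.09 CPM). In that library the marker level and the ligand level cannot be told apart, and leaving it out removes both.

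The comparisons were also fitted with the log2 summed level of the meningeal markers as a covariate. In ShhN IUE 9 genes then rose and 15 fell, and all 18 calls of the fit without it were among them. Added were Bmp7 (log2 fold change -0.85, adjusted p 0.00929), Msx1 (adjusted p 0.00808), Nog (-0.60, adjusted p 0.0449), Gdf5 and Tgfbr3 among those that fell, and Id1 (0.79, adjusted p 0.0336) among those that rose. In SmoM2 4 rose and 7 fell, and the call of Chrd was among those lost (adjusted p 0.0844), while Smad3 and Tgfbr3 were added. Between SmoM2 and ShhN IUE, 7 were higher and 7 lower, with Bmp7 (0.51, adjusted p 0.0462), Msx1 (1.93, adjusted p 0.00789) and Bmp15 added to the higher ones and Id1 (-0.81, adjusted p 0.0277), Acvr1b, Fstl3 and Tgfb3 to the lower ones, and Id4 lost (adjusted p 0.0757). The covariate was chosen after the library differences were seen.

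**Figure D4:**
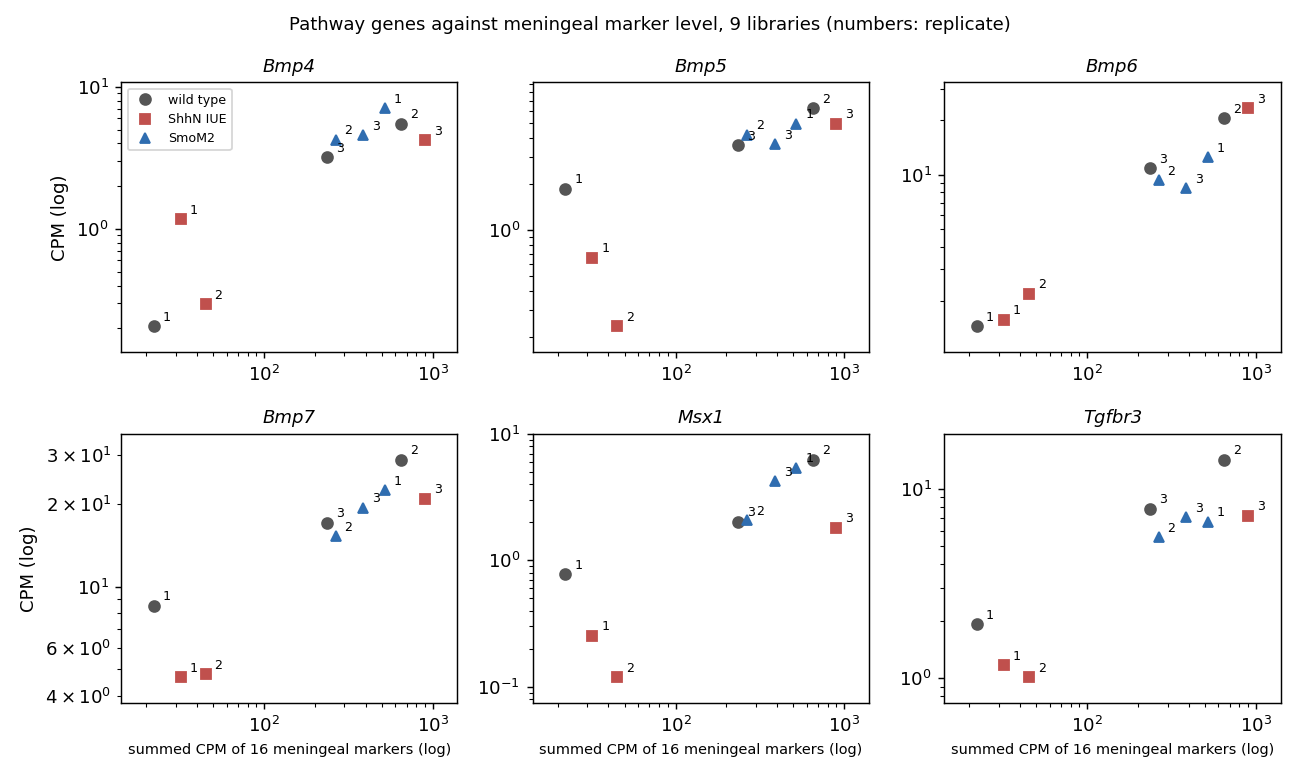
CPM of Bmp4, Bmp5, Bmp6, Bmp7, Msx1 and Tgfbr3 (y axes, log) against the summed CPM of 16 meningeal markers (x axis, log) in 9 libraries, numbered by replicate; wild-type points are from the ShhN IUE table. Wild-type library 1 and ShhN IUE libraries 1 and 2 have the lowest marker sums and lie low on the y axes, and the SmoM2 libraries lie together near wild-type libraries 2 and 3.

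Other genes of the pathway were described from lists beyond the name rule. The counts of each list stand beside 33.3% of all tested genes called in ShhN IUE (16.1% rose, 17.2% fell). In SmoM2 the share of all genes was 18.9% (9.59% rose, 9.29% fell). Of 29 other extracellular regulators tested, 4 rose and 8 fell in ShhN IUE, with a median log2 fold change of -0.22, and 2 rose and 6 fell in SmoM2, with a median of -0.06. Smoc1, a secreted BMP antagonist, rose in both, with log2 fold changes of 1.64 (SE 0.20, adjusted p 0.00126) in ShhN IUE and 1.46 (SE 0.11, adjusted p 0.000268) in SmoM2. Vwc2 (Brorin), another secreted antagonist of BMPs, fell by 2.24 (SE 0.35, adjusted p 0.00323) and by 1.47 (SE 0.22, adjusted p 0.00357). Ltbp1, which binds latent TGF-beta, rose by 1.10 (SE 0.19, adjusted p 0.00464) in ShhN IUE, as did Ltbp3 by 0.69 (SE 0.12, adjusted p 0.00462). In SmoM2, Thbs1, an activator of latent TGF-beta, fell by 0.95 (SE 0.11, adjusted p 0.00131), and fibrillin 1 (Fbn1), which tethers it in the matrix, fell by 0.80 (SE 0.12, adjusted p 0.00342).

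Of 26 other intracellular regulators, 4 rose and 7 fell in ShhN IUE, and 2 rose and 3 fell in SmoM2, with medians of -0.06 and -0.11. In ShhN IUE, Ppm1a, a phosphatase of SMADs, had a log2 fold change of -0.76 (SE 0.11, adjusted p 0.00204), and Strap, which supports SMAD7 at the receptor, one of -0.82 (SE 0.12, adjusted p 0.00277). Smurf1, a ubiquitin ligase for BMP SMADs, rose by 0.74 (SE 0.11, adjusted p 0.00281) there. In SmoM2, Zeb1, a transcriptional repressor that acts with SMADs, rose by 0.84 (SE 0.11, adjusted p 0.00232) and the SMAD corepressor Tgif1 by 1.16 (SE 0.24, adjusted p 0.013). There Skil, another corepressor, and Pmepa1, a TGF-beta target and inhibitor, had log2 fold changes of -0.62 (SE 0.13, adjusted p 0.0128) and -0.82 (SE 0.19, adjusted p 0.0205). Among 14 other targets, 1 rose and 1 fell in ShhN IUE, and 0 rose and 2 fell in SmoM2. Hey1, a target of Notch as well as of BMP signals, fell in both, by 0.85 (SE 0.14, adjusted p 0.00383) and by 1.28 (SE 0.12, adjusted p 0.000495). Ctgf, a TGF-beta target, fell by 0.88 (SE 0.14, adjusted p 0.00465) in SmoM2.

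In the authors' deposited table of ShhN IUE, 6 pathway genes were marked as higher and 6 as lower, and in that of SmoM2 2 and 4. The authors' deposited tables mark Fst (q-value 0.00223 and 9.05e-17) and Gdf9 as higher and Chrdl1 and Bmp2 as lower in both groups. Among genes called here, they do not mark Acvr2b, Bmpr1a, Bmpr2, Inhba, Smad7, Tgfbr1 and Id2 in ShhN IUE. In SmoM2 they do not mark Acvr2a, Inhba, Smad7, Grem1 and Chrd. Gdf2 and Bmp15, which the filter on low counts left out here, are marked as lower in the authors' deposited table of ShhN IUE.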

How the data were processed

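RNA of newborn mouse cortex was sequenced in 9 libraries, 3 per group, with groups and replicate numbers from the sample titles. Per the file headers, the authors deposited counts and FPKM per gene for every library, with a q-value from their own comparison. Tools listed in the submitters' processing notes are HISAT2, StringTie and edgeR, without versions, and the builds GRCm38.p4 and mm10. The sources used here do not say whether strand was used or how shared reads were assigned. Coordinates are those of the tables, and 0 per-sample columns were left unmapped.

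Counts were tested within each table with edgeR 4.0.16 in R 4.3.3 (quasi-likelihood F test, TMM scaling, default filter by group, Benjamini-Hochberg adjustment over all genes tested), and the functions were tested on simulated data. SE is the log2 fold change divided by the square root of F. SmoM2 and ShhN IUE were compared in a fit of all 9 libraries over genes whose summed wild-type counts, with 5 added, agreed between tables within 0.1 on the log2 scale (16195 of 22268, and 53 of 65 pathway genes), averaging wild-type counts. FPKM served only to compare levels between genes. Exon overlaps were taken from the GENCODE annotation of GRCm38. The alternatives tried were DESeq2 1.42.0, scaling by RLE or by the upper quartile, testing all genes unfiltered, a block for replicate number, and omitting libraries singly. The last fit was also run with a tolerance of 0.2 and with 6 libraries. Restriction to agreeing genes and the meningeal covariate were added after the data were examined. Members, lists and tests were chosen with earlier results of these data known.

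Named with statistics are all genes past the threshold whose mean reached 1 CPM, and a fixed set (Bmp4, Bmp7, Tgfb2, Gdf11, Bmpr1a, Bmpr1b, Bmpr2, Smad1, Smad4, Smad5, Smad6, Smad7, Id1, Id2, Id3, Id4, Nog, Fst and Msx1). Bmp8b is under that level and was named after its values were seen, as were others given without passing. Values of every library are given for the 8 genes of smallest p in each comparison and for the Id genes. Up to 4 genes of each other pathway list are named, smallest p first. Genes that met these rules but are not named are not reported here, though counts include them. Same-group libraries differed by more than sampling noise (chi-square per degree of freedom 17.7 to 36.9), so none was merged.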

Additional observations from a re-analysis of the deposited data

How the results depend on the processing

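No called gene changed direction under any alternative run. Among the named genes not called, Bmp4, Gdf11 and Smad5 in ShhN IUE, Bmp7, Bmpr1a, Id3, Id4, Msx1 and Smad5 in SmoM2, and Id2 and Smad1 between SmoM2 and ShhN IUE changed sign when 1 library was left out. The number of pathway genes that rose and fell was 8 and 10 in ShhN IUE, and leaving out 1 library gave 3 to 8 and 5 to 14. In SmoM2 it was 3 and 8, and leaving out 1 library gave 2 to 4 and 1 to 9. Between SmoM2 and ShhN IUE it was 5 and 3, with 3 to 9 and 1 to 4. DESeq2 called 5 genes higher in SmoM2 than in wild type and 5 lower in SmoM2 than in ShhN IUE. With the meningeal covariate 7 were lower in SmoM2 than in ShhN IUE. All other counts stayed within 1.5 times, which at counts this small covers few genes. With 2 libraries left in a group, the spread is pooled over both groups.

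Same-numbered libraries did not deviate together (correlations of -0.322 to 0.278 against wild type and -0.139 to 0.0945 between the manipulated groups), and not every library correlated best with its own number, so the numbers were not taken as pairs. With the replicate number as a replicate block, 6 rose and 7 fell in ShhN IUE, 3 and 7 in SmoM2, and 4 and 3 between the groups. What depth limits was not tested: the genes too low to test had at most 18 counts in any library.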
